A study of Mus musculus with 6 samples.

Results

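Liver RNA of mice lacking Abcg8 was compared between a stigmasterol diet and a high sitosterol diet, 1 library each, over all genes measured in either library. A gene was taken into the comparison when it reached 1 CPM, a count scaled to the size of the library, in at least 1 of the 2 libraries. Of 33639 gene symbols in the deposited table, 13213 met this rule. They include 11699 genes that reached it in both libraries, 1357 that reached it in the stigmasterol liver alone and 157 that reached it in the high sitosterol liver alone. The genes admitted by 1 library alone were high there by the rule itself. Counts of higher or lower genes that include them rest in part on that rule and are descriptions only.

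ABCG5 and ABCG8 are half-transporters that pair to send plant sterols out of liver cells into bile and out of gut cells into the lumen. When either is missing, these sterols accumulate in the body, the disorder called sitosterolemia. Stigmasterol has the structure of sitosterol except for a double bond added to the side chain. In liver, sterols act on the SREBP2 pathway, which turns on cholesterol synthesis and uptake when membranes hold little cholesterol, and some oxysterols and related sterols bind the nuclear receptor LXR, which turns on sterol export.

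Per the labels, the mice were male and lacked Abcg8 in the whole body. Until weaning they had a diet low in sterols with 0.005% ezetimibe, which blocks intestinal sterol uptake, and then had 12 weeks of either a stigmasterol or a high sitosterol diet. The series also holds a low sitosterol and an ergosterol liver of the same genotype, sex, ezetimibe exposure and diet length, whose levels are given here beside the comparison. The sources used here do not give the sterol doses, the ages or the deleted part of Abcg8, so the 1 pair of compounds compared cannot be called matched in dose. They do not say whether a library held 1 mouse or pooled mice. Each group was 1 library, called a liver below, so there is no replicate check, and every ratio compares these 2 libraries and not the 2 sterols.

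The high sitosterol library held 48505203 estimated counts over 18471 genes and the stigmasterol library 50573529 over 19330 genes. A count of 0 allows up to 0.0618 CPM in the former and 0.0593 in the latter, taking 3 counts as the limit. The 10 most abundant genes took 24.3% of the counts in the high sitosterol liver and 17.7% in the stigmasterol liver, and the 100 most abundant took 51.9% and 39.9%. Trimmed-mean (TMM) scaling factors were 0.95 and 1.35. Levels below are CPM divided by these factors, called scaled CPM, and are for comparing a gene between livers, not genes with each other. Both libraries carried the markers of liver: albumin (Alb) stood at 107958 scaled CPM with high sitosterol and 42094 with stigmasterol, and transthyretin (Ttr), another secreted liver protein, at 8885 and 4009. Markers of neighbouring organs were low in both. Of 10 adrenal cortex genes 6 reached 1 CPM in either liver, and the list summed to 103 scaled CPM with high sitosterol and 67.03 with stigmasterol, of which Fdx1, active in many tissues, gave 96.4 and 56.1. Star, which feeds cholesterol to steroid synthesis, was at 1.38 and 1.97 but at 25.5 in the low sitosterol liver. Cyp11a1, Hsd3b1 and Akr1b7 were highest there too, at 17.1, 26.9 and 10.1, against 0.324, 0.799 and 1.45 with high sitosterol and 0.792, 1.32 and 3.20 with stigmasterol. Of 11 pancreatic acinar genes only Cela1 reached 1 CPM, at 9.05 and 9.20, and none of 7 kidney tubule genes did.

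The targeted gene was examined first. Abcg8 (chromosome 17, 84676302 to 84700333, plus strand, GRCm38) had 490 counts in the high sitosterol liver and 788 in the stigmasterol liver, or 10.6 and 11.6 scaled CPM, with 1.25 in the low sitosterol liver and 8.84 in the ergosterol liver. Its log2 ratio of stigmasterol over high sitosterol was 0.13 (95% counting interval -0.04 to 0.29). Its partner Abcg5, which lies head to head with it (chromosome 17, 84658234 to 84683011, minus strand), stood at 188 scaled CPM with high sitosterol and 132 with stigmasterol, with 11.7 in the low sitosterol liver and 72.8 in the ergosterol liver, a log2 ratio of -0.51. The 2 genes overlap in the annotation and the library kit does not mark strand, so their reads cannot be told apart with certainty and these totals do not check the deletion.

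A difference counted as higher or lower with stigmasterol when the ratio was at least 2-fold and its exact 95% interval, which covers counting error only, excluded equality. By this size rule 2180 genes (16.5%) stood higher and 714 (5.4%) lower, and the median log2 ratio of all genes was 0.10. The quartiles were -0.29 and 0.62, and 61.2% of genes lay within 1.5-fold. At 8-fold or more, 440 genes were higher and 67 lower. Of the higher genes 1076 and of the lower genes 130 had been admitted by 1 library alone, and among the 11699 genes at 1 CPM in both libraries 1104 were higher and 584 lower, with a median of 0.04. These shares rest on the scaling. Of all calls 75.3% were higher with TMM factors, against 92.1% with total counts alone, 94.0% on the log2(TPM + 0.1) scale and 93.1% on the log2(TPM + 1) scale, and those scalings moved the median of all genes up by 0.50, 0.60 and 0.45. Of the 2180 higher genes 1352 passed the rule under every scaling (TMM of the 4 or of the 2 libraries, DESeq2 size factors, total counts and both TPM scales), and so did 181 of the 714 lower genes. Below, the number of list members called is to be read against the 16.5% and 5.4% of all genes, and the list median against 0.10. These shares changed with level in the higher library, and the lists were not matched for level. At 1 to 3 CPM 40.0% were higher and 9.95% lower (median 0.62). At 100 to 1000 CPM 5.88% were higher and 10.6% lower (median -0.17), and at 1000 CPM or more 4.03% and 29.8% (median -0.68).

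**Figure D1:**
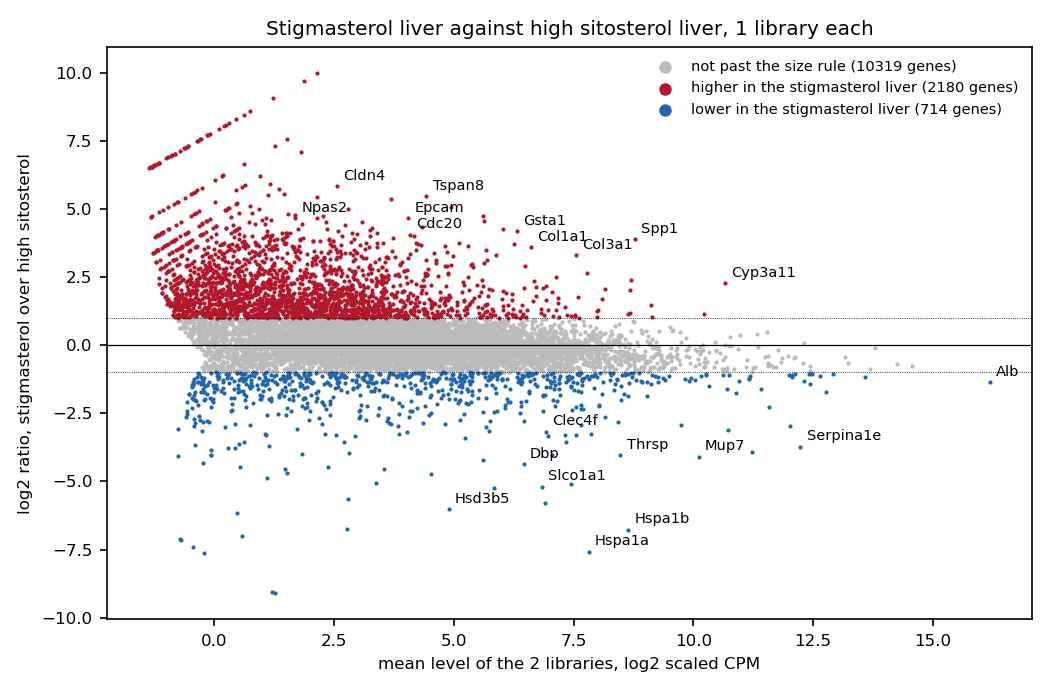
Log2 ratio of stigmasterol over high sitosterol (vertical axis) against the mean of the 2 livers in log2 scaled CPM (horizontal axis), 1 point for each of 13213 genes, with dotted lines at 2-fold. Red points are the 2180 higher and blue points the 714 lower genes; the slanted lines of points at the left are genes at 0 or a few counts in 1 liver, whose plotted ratio depends on the prior count.

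The other livers show on which side the pair departs. For 1681 of the 2180 higher genes (77.1%) the low sitosterol and ergosterol livers were both nearer to the high sitosterol liver on the log2 scale, and for 112 (5.14%) both were nearer to the stigmasterol liver. For the 714 lower genes the numbers were 404 (56.6%) and 134 (18.8%). Among the 10319 genes that were neither, they were 42.7% and 23.6%. These shares are partly set by the choice of genes as high or low in 1 library, and are given as a description.

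**Figure D2:**
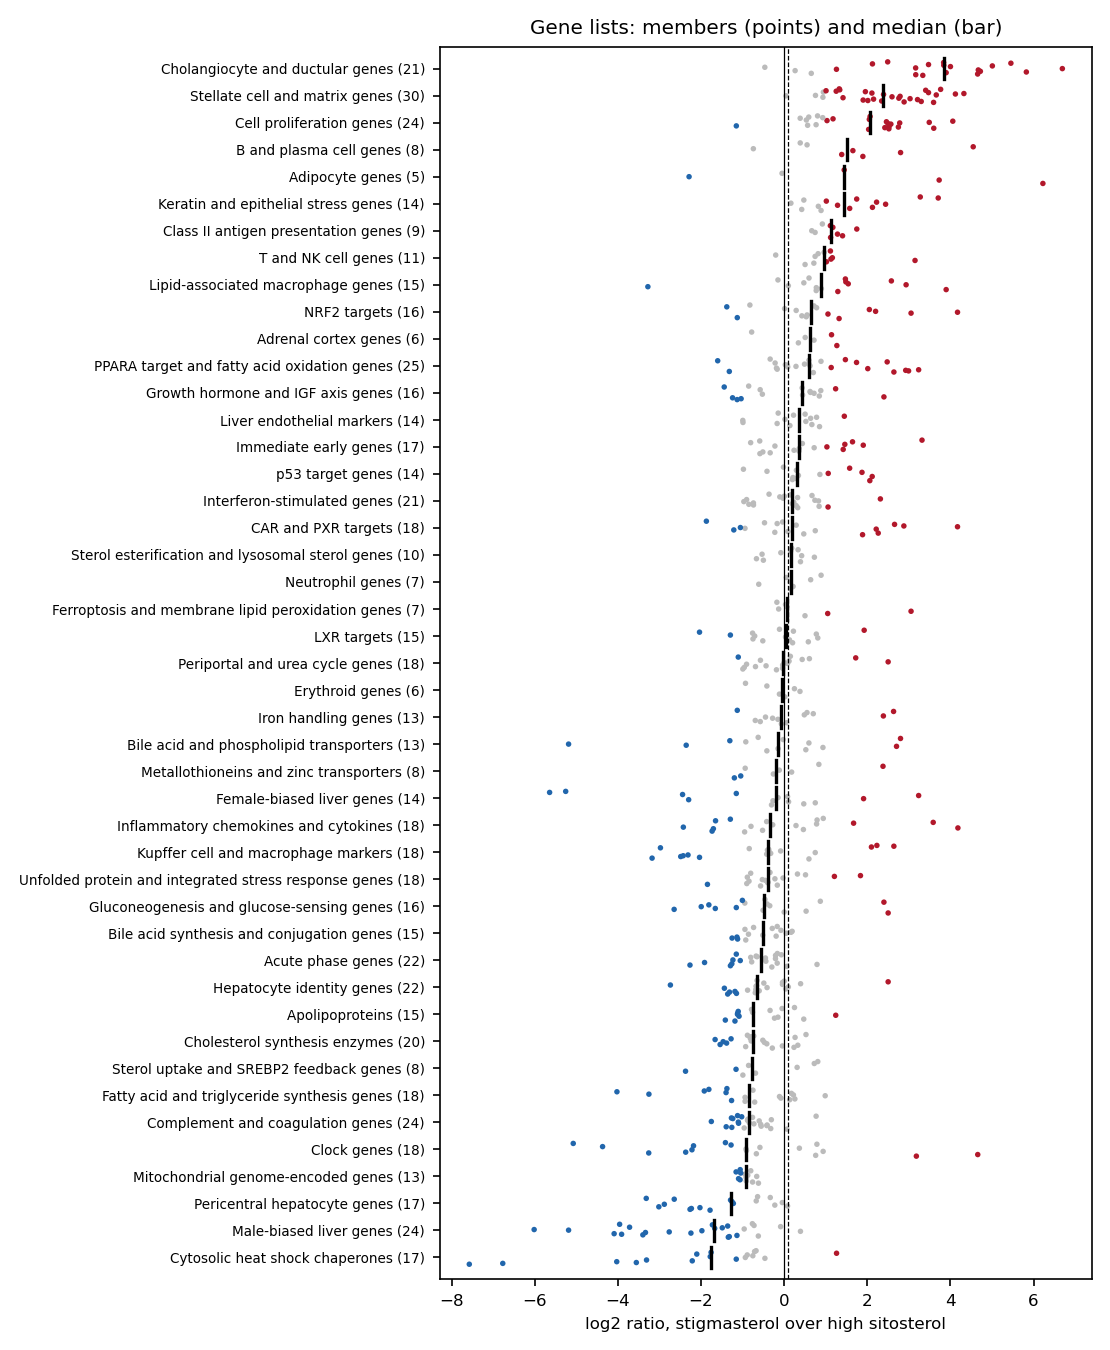
Log2 ratio of stigmasterol over high sitosterol for the members of each gene list with at least 3 analysed members (number in brackets); points are genes, red higher, blue lower and grey neither by the size rule, and black bars are list medians. The dashed line is the median of all genes, 0.10; cholangiocyte and matrix lists lie farthest right and male-biased genes and heat shock chaperones farthest left.

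Sterol genes were taken first. The 20 enzymes of cholesterol synthesis included 5 that were lower with stigmasterol and 0 that were higher, around a median log2 ratio of -0.76. Tm7sf2, a sterol reductase, stood at 69.8 scaled CPM with high sitosterol and 22.04 with stigmasterol, 3.16-fold lower. Mvd, which makes isopentenyl diphosphate, stood at 8.94 and 3.07 (2.91-fold lower), and Sqle, the epoxidase that commits squalene to sterols, at 20.3 and 7.35 (2.77-fold lower). Fdps, which makes farnesyl diphosphate, and Msmo1, which removes methyl groups from sterol intermediates, were 2.61-fold and 2.42-fold lower. Lss, which closes the sterol rings (log2 -0.79), Cyp51, a sterol demethylase (-0.51), and Hmgcs1 (0.24) missed the 2-fold limit. Only Tm7sf2 passed the rule under every scaling, and the list median was -0.26 with total counts and 0.01 on the log2(TPM + 0.1) scale, on which the median of all genes was 0.70.

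Among 8 sterol uptake and SREBP2 feedback genes, 0 were higher and 2 lower (median -0.77). Insig1, which holds the SREBP complex in the endoplasmic reticulum and is itself an SREBP target, stood at 296 scaled CPM with high sitosterol and 57.1 with stigmasterol, with 220.0 in the low sitosterol liver and 209 in the ergosterol liver. It was 5.18-fold lower (log2 -2.37, -2.42 to -2.32) and the stigmasterol liver was the lowest of the 4. Insig2, its relative that is not driven by SREBP in the same way, was at 133 and 219 (log2 0.72). Stard4, a sterol carrier, was 2.23-fold lower, though not under every scaling.

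Among 15 targets of LXR, 1 was higher and 2 were lower. Their median was 0.03 and ran from -0.03 to 0.54 over the scalings. The cholesterol exporters Abca1 (86.4 and 99.4 scaled CPM) and Abcg1 (12.3 and 18.3) had log2 ratios of 0.20 and 0.58. Srebf1, the regulator of fatty acid synthesis, was at 399 and 237 (-0.75). Arl4c, a small GTPase, was the higher member (3.80-fold). The lower members were the lipid transfer protein Pltp (2.45-fold, not under every scaling) and Cd5l, a protein secreted by Kupffer cells (4.10-fold), which is also in the macrophage list below. The 10 sterol esterification and lysosomal sterol genes had 0 members past the rule (median 0.17). They include Soat2, the acyltransferase that stores sterols as esters, at 37.5 and 26.5, Soat1 at 8.96 and 11.8, and the lysosomal exporter Npc1 at 98.1 and 67.8.

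Fatty acid and triglyceride synthesis genes stood lower in the stigmasterol liver: 0 of 18 higher, 7 lower and a median of -0.85, or -0.35 with total counts. Thrsp, a nuclear protein that follows the rate of lipid synthesis (chromosome 7, 97412938 to 97417730, minus strand), stood at 671 scaled CPM with high sitosterol and 41.2 with stigmasterol, with 1369 in the low sitosterol liver and 272 in the ergosterol liver. It was 16.3-fold lower (log2 -4.02, -4.08 to -3.97), and the stigmasterol liver held the lowest level of the 4. Lpin1, the phosphatase that makes diacylglycerol, was at 423 and 44.4 (9.54-fold lower). Mlxipl, the sugar-sensing factor ChREBP, was at 181 and 51.7 (3.51-fold lower). These 3 passed the rule under every scaling. Pnpla3 (3.79-fold), Dgat2, which joins the last fatty acid to triglyceride (2.64-fold), Acss2 (2.60-fold) and fatty acid synthase Fasn (963 and 401, 2.40-fold) were lower with TMM factors but not under every scaling. Scd1, the desaturase that makes oleic acid, was at 14774 and 13665 (log2 -0.11), while its skin and brain relatives stood higher: Scd2 at 6.50 and 124 (18.98-fold, chosen after its values were seen) and Scd3 at 0.194 and 8.68 (42.8-fold, from 9 counts against 592).

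Of 15 genes that make and conjugate bile acids 3 were lower and 0 higher. Their median of -0.51 turned to 0.16 on the log2(TPM + 0.1) scale. Cyp7a1, whose hydroxylation of cholesterol sets the rate of the classic pathway, stood at 70.7 scaled CPM with high sitosterol and 37.3 with stigmasterol, with 13.4 in the low sitosterol liver and 145 in the ergosterol liver (log2 -0.92, -0.999 to -0.85). It stayed short of 2-fold, and the ergosterol liver was the highest of the 4. Cyp8b1, the sterol hydroxylase needed for cholic acid, was at 159 and 73.1 (2.17-fold lower). Cyp27a1, the mitochondrial side-chain hydroxylase, was 2.38-fold lower (321 and 135), and Cyp7b1, an oxysterol hydroxylase higher in male liver, 2.20-fold lower. These calls did not hold under every scaling. Of 13 bile acid and phospholipid transporters 2 were higher and 3 lower, and their median ran from -0.22 to 0.35 over the scalings. Among the 12 at 1 CPM in both libraries 1 was higher and 3 were lower (median -0.28). Slc10a1, the sodium-coupled carrier that takes bile acids up from blood, stood at 339.7 scaled CPM with high sitosterol and 66.3 with stigmasterol, with 899 in the low sitosterol liver and 578 in the ergosterol liver, 5.12-fold lower. Slco1a1, an organic anion carrier of male liver, was at 224 and 6.13 (36.4-fold lower), and Slco2b1 was 2.47-fold lower, the latter not under every scaling. On the blood side, the exporters Abcc4 (1.42 and 9.33, 6.51-fold) and Slc51b, a subunit of the bile acid exporter OST (0.216 and 1.55, 6.96-fold), stood higher and Abcc3 missed the rule (log2 0.93). The canalicular exporter of bile salts Abcb11 (-0.42) and the phospholipid flippase Abcb4 (0.52) were not past it.

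Of 15 apolipoprotein genes 6 were lower and 1 was higher (median -0.76). Apoc2, which activates lipoprotein lipase, stood higher at 151 scaled CPM with high sitosterol and 357 with stigmasterol (2.36-fold). Apoa1 and Apoa2, the main proteins of high-density lipoprotein, were 2.27-fold and 2.67-fold lower. Apob was at 2059 and 1856 (log2 -0.15). None of the 6 lower calls held under every scaling.

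Genes of bile duct cells gave the largest differences by list median. Of 21 cholangiocyte and ductular genes 18 stood higher in the stigmasterol liver and 0 lower, with a median of 3.84, or 3.79 with a member at 0 counts in 1 library set to its lower bound. On the log2(TPM + 0.1) scale the median was 3.35, and 16 of the 18 passed under every scaling. Of the 21, 9 were admitted by the stigmasterol library alone, and of the 12 at 1 CPM in both libraries 9 stood higher and 0 lower (median 2.83). Their levels summed to 241 scaled CPM with high sitosterol and 1388 with stigmasterol, against 257 with low sitosterol and 202 with ergosterol. Spp1, which some macrophages also make, gave 55.4 of the high sitosterol sum and 825 of the stigmasterol sum. In such bulk tissue, more cells of a type and more RNA per cell cannot be told apart, here and in each cell type list below.

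Tight junction proteins and adhesion molecules of epithelium led the list. Cldn4, a claudin of duct epithelium (chromosome 5, 134945119 to 134946934, minus strand), stood at 0.194 scaled CPM with high sitosterol and 11.5 with stigmasterol, 9 counts against 785, with 0.0244 in the low sitosterol liver and 0.0224 in the ergosterol liver. It was 56.7-fold higher (log2 5.83, 4.96 to 7.02). Epcam, the adhesion molecule used to sort duct cells and liver progenitors, was at 1.25 and 31.8 (25.2-fold), and the tetraspanin Tspan8 at 0.950 and 42.03 (43.9-fold). The keratins of ducts, Krt19 (1.12 and 11.4) and Krt7 (1.17 and 10.5), were 10.1-fold and 8.97-fold higher, and Krt23 was 32.2-fold higher. In all of these the low sitosterol and ergosterol livers lay with the high sitosterol liver.

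Spp1, which encodes osteopontin and is made by duct cells and by some macrophages, stood at 55.4 scaled CPM with high sitosterol and 825 with stigmasterol, with 56.1 in the low sitosterol liver and 32.1 in the ergosterol liver (14.9-fold, log2 3.84 to 3.96). The chloride channel Cftr was at 0.151 and 4.06 (25.5-fold), the secretin receptor Sctr at 0.0648 and 1.04, from 3 counts against 71 (log2 interval 2.40 to 6.32), and the mucin Muc1 at 0.734 and 11.9 (log2 interval 3.52 to 4.56). These are functions of mature duct epithelium. Sox9, the transcription factor of ducts and progenitors, was at 11.1 scaled CPM with high sitosterol and 17.4 with stigmasterol, with 3.52 in the low sitosterol liver and 3.75 in the ergosterol liver (log2 0.65) and missed the rule. So did Cldn3 (0.26), which hepatocytes also carry, and Onecut1 (-0.47), a factor of hepatocytes and ducts.

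Matrix and stellate cell genes followed: 26 of 30 higher, 0 lower, median 2.37, and 25 higher under every scaling. Of the 28 at 1 CPM in both libraries 24 were higher. Col1a1, the main chain of fibrillar collagen (chromosome 11, 94936224 to 94953042, plus strand), stood at 14.9 scaled CPM with high sitosterol and 179.6 with stigmasterol, with 10.1 in the low sitosterol liver and 7.21 in the ergosterol liver. It was 12.1-fold higher (log2 3.48 to 3.71). Col1a2 was at 21.3 and 158 (7.39-fold) and Col3a1 at 34.8 and 342 (9.83-fold). The basement membrane collagens Col4a1 (5.08-fold) and Col4a2 (4.04-fold) were higher as well. The lysyl oxidases, which crosslink collagen and elastin, included Loxl1 at 1.90 and 38.2 (20.03-fold) and Lox at 0.302 and 5.40 (17.4-fold). Eln, elastin itself, was among the 10 largest ratios of genes with at least 10 CPM in the higher library, at 1.75 and 59.6 (33.9-fold), as was the metalloproteinase Mmp7 (0.605 and 25.3, 41.3-fold). Timp1, the inhibitor of metalloproteinases, was 12.6-fold higher, and Fbn1, fibrillin, 13.6-fold.

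The markers of the quiescent stellate cell stayed within 2-fold. Lrat, which stores vitamin A in quiescent stellate cells, was at 8.23 scaled CPM with high sitosterol and 8.48 with stigmasterol (log2 0.04), and Reln at 21.9 and 36.9 (0.75). Desmin (Des, 0.93) and decorin (Dcn, 0.94) were just short of 2-fold. The growth factor receptors of fibroblasts and stellate cells, Pdgfra and Pdgfrb, were 6.91-fold and 6.04-fold higher. Acta2, the smooth muscle actin of myofibroblasts and vessel walls, was at 1.47 and 9.99 (6.77-fold), but the low sitosterol liver, at 10.4, lay with the stigmasterol liver. The low sitosterol library also held the most adrenal cortex Cyp11a1, Hsd3b1 and Akr1b7, given above. Smooth muscle Myh11 (0.950 and 2.92) and Myl9 (1.25 and 4.62), the 2 of 8 muscle genes at 1 CPM, had the same order, with 4.37 and 4.86 in the low sitosterol liver. The part of vessel muscle in the Acta2 difference was not tested.

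Cell cycle genes stood higher, 16 of 24 against 1 lower, with a median of 2.06. Among the 22 at 1 CPM in both libraries 15 were higher and 1 lower. Mki67, found in dividing cells, stood at 7.95 scaled CPM with high sitosterol and 32.5 with stigmasterol, with 0.342 in the low sitosterol liver and 1.89 in the ergosterol liver (4.09-fold). The stigmasterol liver was the highest and the high sitosterol liver the second. Genes of mitosis showed the larger ratios: Cdc20, which drives exit from metaphase, was at 1.92 and 32.1 (16.6-fold), Ccnb1, the mitotic cyclin, at 1.42 and 17.4 (12.1-fold), and the kinase Plk1 at 1.23 and 13.9 (11.2-fold). Genes of entry to S phase and of DNA copying showed smaller ones. The helicase subunits Mcm2 and Mcm6 were 2.04-fold and 2.26-fold higher, while Mcm3 (log2 0.53), Pcna (0.39), Rrm2 (0.93), Tyms (0.59) and Ccnd1 (0.77) missed the rule. Ccne1, the cyclin of the G1 to S step, was the lower member, at 3.82 and 1.72 (2.22-fold). It was lower with TMM factors, but not under every scaling.

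**Figure D3:**
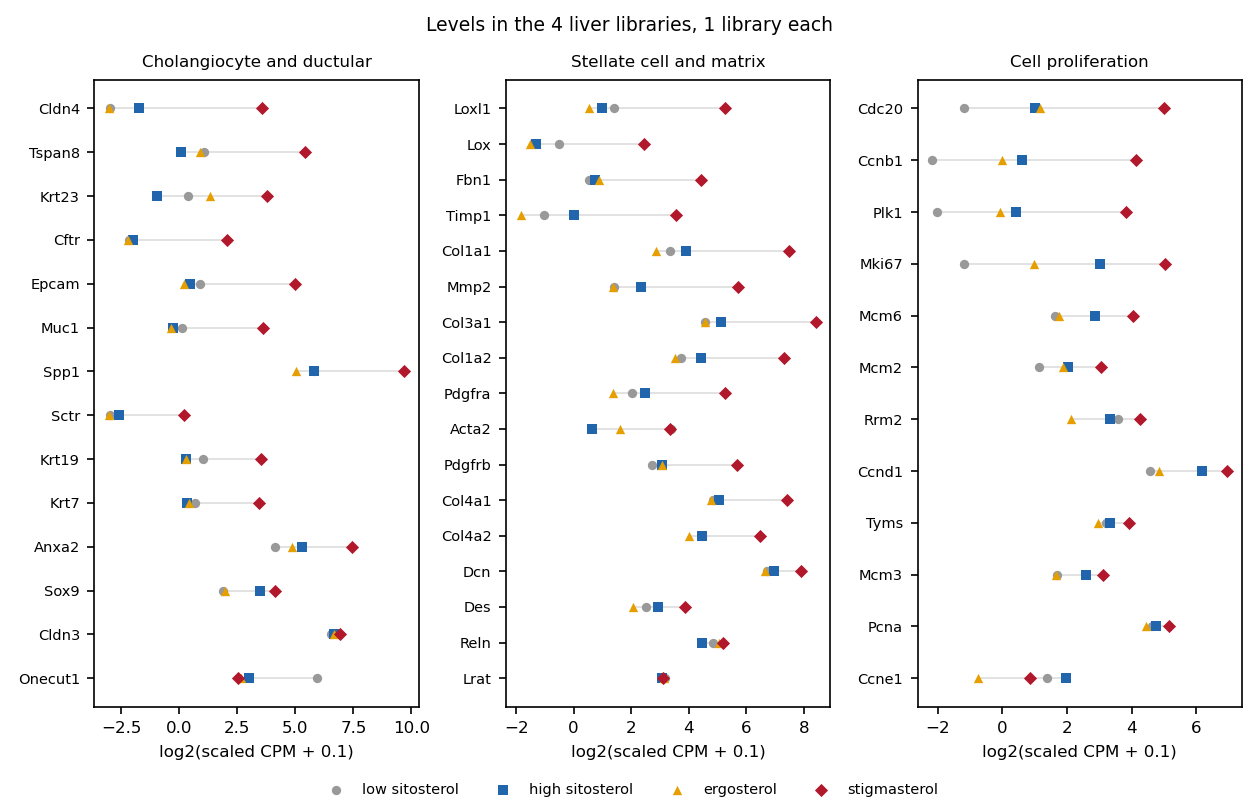
Levels of duct, matrix and cell cycle genes named in the text in the 4 livers as log2(scaled CPM + 0.1), 1 symbol for each library and no error bars because each group is 1 library; genes are sorted by the ratio of stigmasterol (red diamond) over high sitosterol (blue square). The stigmasterol liver lies to the right of the other 3 for most genes of the first panels, and for Mki67 the high sitosterol liver is the second highest.

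Keratins and epithelial stress genes had 9 of 14 analysed members higher and 0 lower (median 1.43). Among the 13 at 1 CPM in both libraries 8 were higher and 0 lower (median 1.28). Ly6d, a surface protein of squamous epithelium and lymphocytes, stood at 10.9 scaled CPM with high sitosterol and 142 with stigmasterol, with 6.45 in the low sitosterol liver and 5.01 in the ergosterol liver (13.1-fold). The calcium-binding proteins S100a6 (5.43-fold) and S100a11 (4.67-fold) and the annexins Anxa2 (4.36-fold), which is also in the duct list, and Anxa5 (2.44-fold) were higher. The keratins of hepatocytes, Krt8 (299 and 554, log2 0.89) and Krt18 (270.2 and 362, 0.42), did not reach 2-fold.

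Macrophage genes parted by kind. Of 18 analysed markers 6 were lower and 3 higher, around a median of -0.39 that was 0.11 with total counts. Ly6c2, a higher member, was admitted by the stigmasterol library alone and Timd4, a lower member, by the high sitosterol library alone. Among the 16 at 1 CPM in both libraries 5 were lower and 2 higher. The list summed to 1254 scaled CPM with high sitosterol and 833 with stigmasterol. Genes of resident Kupffer cells were the lower ones. Clec4f, a lectin made by Kupffer cells (chromosome 6, 83644542 to 83656187, minus strand), stood at 218 scaled CPM with high sitosterol and 24.1 with stigmasterol, with 79.5 in the low sitosterol liver and 131 in the ergosterol liver (9.05-fold lower, log2 -3.25 to -3.10). The stigmasterol liver was the lowest of the 4. Folr2 (25.3 and 3.21), the complement receptor Vsig4 (39.2 and 6.98), the phosphatidylserine receptor Timd4 (1.14 and 0.205), the scavenger receptor Marco (18.1 and 3.64) and Cd5l (227 and 55.4) were 7.87, 5.61, 5.39, 4.97 and 4.10-fold lower. For Marco the low sitosterol and ergosterol livers, at 3.13 and 4.11, lay with the stigmasterol liver. For Cd5l and Vsig4 the low sitosterol liver, at 56.9 and 15.9, was nearer to the stigmasterol liver on the log2 scale. The high sitosterol liver was the highest of the 4 for Clec4f, Folr2, Vsig4 and Cd5l.

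The higher members were genes of monocytes: the chemokine receptor Ccr2 at 1.75 and 10.9 (6.23-fold), Ly6c2 at 0.518 and 2.46 (4.69-fold) and the integrin Itgam at 1.47 and 6.32 (4.29-fold). Genes shared by macrophages in general stayed within 2-fold, among them Csf1r (79.8 and 59.6), Cd68 (35.3 and 28.2) and C1qa (146 and 113). Of 15 genes of lipid-associated macrophages 7 were higher and 1 lower (median 0.89). The higher ones include Spp1, given above, which is also in the duct list. Itgax, an integrin of these cells and of dendritic cells, was 5.98-fold higher (3.20 and 19.1), the protease Ctsk 7.64-fold and the lipid receptor Trem2 2.45-fold (10.2 and 25.01). Gpnmb, a glycoprotein of lipid-loaded macrophages, was at 20.7 scaled CPM with high sitosterol and 35.3 with stigmasterol, with 0.0977 in the low sitosterol liver and 0.314 in the ergosterol liver, so that it was high in both livers compared here and did not reach 2-fold between them (log2 0.77). Fabp5, a fatty acid carrier that hepatocytes also make, was the lower member at 291 and 29.98 (9.71-fold), with 755 in the low sitosterol liver.

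Class II antigen presentation genes had 6 of 9 higher (median 1.12), with H2-Ab1 at 87.2 scaled CPM with high sitosterol and 231 with stigmasterol (2.65-fold) and the invariant chain Cd74 at 253 and 569 (2.25-fold). Of the 8 class II genes at 1 CPM in both libraries 5 were higher and 0 lower (median 1.11). Genes of B and plasma cells had 5 of 8 analysed members higher and 0 lower (median 1.52), and 3 of the 5 at 1 CPM in both libraries were higher. Igha, the constant region of immunoglobulin A, stood at 4.04 scaled CPM with high sitosterol and 94.7 with stigmasterol, with 2.25 in the low sitosterol liver and 0.965 in the ergosterol liver (23.4-fold), and Jchain, which joins such antibodies, was 6.97-fold higher. Ighm, the constant region of immunoglobulin M, was at 17.7 and 10.6 (log2 -0.74). T and NK cell genes were low, and 7 of the 11 analysed had been admitted by the stigmasterol library alone. Of the 4 at 1 CPM in both libraries 1 was higher and 0 lower, and the whole list summed to 9.39 and 17.4 scaled CPM. Neutrophil genes had 0 of 7 past the rule (median 0.15), S100a9 being at 3.78 and 4.39, and 5 of the 12 listed did not reach 1 CPM. Of 14 endothelial markers (median 0.36) only Vwf, a clotting protein of vessel lining, passed the rule (2.73-fold higher).

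Chemokines and cytokines showed both directions, with 3 of 18 higher and 5 lower (median -0.35, or 0.15 with total counts). Of the 18, 1 (Ccl22) was admitted by the stigmasterol library alone and 3 by the high sitosterol library alone. Among the 14 at 1 CPM in both libraries 2 were higher and 3 lower, with a median of 0.004. Cx3cl1, the membrane-bound chemokine fractalkine, was at 1.62 and 19.5 (12.01-fold higher), Ccl22 at 0.216 and 4.06 (18.1-fold) and Cxcl16 at 12.5 and 39.8 (3.18-fold). Cxcl1, which draws neutrophils, was at 28.8 and 5.35 (5.37-fold lower), with 4.89 in the low sitosterol liver and 6.62 in the ergosterol liver, so the high sitosterol liver stood apart. Il1a (3.14-fold), Il18 (2.45-fold), Ccl3 (3.33-fold) and Ccl7 (3.26-fold) were lower too, but of the 5 only Cxcl1 under every scaling. Of 22 acute phase genes of hepatocytes 7 were lower and 0 higher, but only 2 of the 7 under every scaling. Their median was -0.56, or -0.06 with total counts. Saa4 was at 313 and 64.99 (4.81-fold lower) and Orm1 2.39-fold lower, the latter not under every scaling, while Lcn2, an iron-trapping protein, was at 99.2 and 172 (log2 0.79) and Saa1 at 154 and 125. Interferon-stimulated genes had 2 of 21 higher, Rsad2 (4.98-fold) and Ifit2 (2.08-fold), and 0 lower (median 0.20).

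Hepatocyte genes stood lower beside these. Of 22 identity genes 6 were lower and 1 was higher, around a median of -0.66 (-0.16 with total counts), and they summed to 183086 scaled CPM with high sitosterol and 84311 with stigmasterol, against 147649 and 141067 in the low sitosterol and ergosterol livers. The part of this summed level in the differences of the liver genes below was not tested. Alb was 2.56-fold lower and Ttr 2.22-fold lower, neither under every scaling. Nr1i3, the nuclear receptor CAR that governs drug metabolism, was lower under every scaling, at 60.9 scaled CPM with high sitosterol and 9.12 with stigmasterol, with 30.1 in the low sitosterol liver and 113 in the ergosterol liver (6.67-fold). Among transcription factors that set hepatocyte fate, Foxa3 was 2.71-fold lower (123 and 45.5), though not under every scaling. It was at 110 in the low sitosterol liver and 37.0 in the ergosterol liver. Other such factors were within 2-fold: Hnf4a at 461 and 304 (log2 -0.60), Cebpa (-0.41), Foxa2 (0.04) and Prox1 (0.40). Of 24 complement and coagulation genes 9 were lower and 0 higher (median -0.86), with clotting factor F11 at 90.9 and 26.99 (3.37-fold), the call that held under every scaling. F11 was at 71.2 in the low sitosterol liver and 29.2 in the ergosterol liver, the ergosterol liver lying with the stigmasterol liver.

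Genes of the pericentral zone, where blood leaves the lobule, stood lower. Of 17 of them 11 were lower and 0 higher (median -1.29), and 8 were lower under every scaling. Of 18 periportal and urea cycle genes 1 was lower and 2 were higher, around a median of -0.04 that was 0.46 with total counts. Glul, the glutamine synthetase of the cells around the central vein, stood at 425 scaled CPM with high sitosterol and 124 with stigmasterol, with 1241 in the low sitosterol liver and 992 in the ergosterol liver (3.44-fold lower). Cyp2e1, which oxidises ethanol, was at 5037 and 1048 (4.81-fold), and Cyp1a2, which oxidises caffeine, at 228 and 48.6 (4.70-fold). The stigmasterol liver was the lowest of the 4 for each of these 3. Slc1a2, a glutamate carrier, was 8.09-fold lower, and Tbx3, a transcription factor of pericentral cells, 7.38-fold lower at 49.5 and 6.70, although the low sitosterol liver held 6.67. Axin2 (3.56 and 3.77) and Lgr5 (1.34 and 1.14), both targets of Wnt signalling, were within 2-fold. On the periportal side Cps1, the entry enzyme of the urea cycle, was at 1739 and 1691 (log2 -0.04), Ass1 at 3715 and 3267 (-0.19) and Pck1, the gluconeogenic carboxykinase, at 1622 and 1622.

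Genes with more RNA in male than in female mouse liver, which follow the pulsed release of growth hormone, had 18 of 24 analysed members lower and 0 higher (median -1.70), and 12 were lower under every scaling. Hsd3b5, a steroid reductase of male liver (chromosome 3, 98618634 to 98630252, minus strand), stood at 58.4 scaled CPM with high sitosterol and 0.895 with stigmasterol, with 368 in the low sitosterol liver and 132 in the ergosterol liver. It was 64.7-fold lower (log2 -6.02, -6.42 to -5.66). Mup7, a major urinary protein, was at 2086 and 122 (17.04-fold lower) against 25881 in the low sitosterol liver, and Mup3 was 15.04-fold lower. Both compared livers thus stood below the low sitosterol liver for Hsd3b5 and Mup7, and the stigmasterol liver lower still. Serpina1e, a copy of the antitrypsin gene, was at 8965 and 681 (13.2-fold), with 7238 in the low sitosterol liver and 829 in the ergosterol liver, the ergosterol liver lying with the stigmasterol liver. Mup20, the male pheromone darcin, was the exception among the urinary proteins of this list, at 2224 and 2918 (log2 0.39). Reads of the near-identical Mup, Serpina1 and Cyp2c copies are split by estimation and their values are uncertain.

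Female-biased genes were not the reverse of this. Of 14 analysed members 5 were lower and 2 higher (median -0.21, or 0.29 with total counts), and 10 of the 24 listed did not reach 1 CPM. Of the 14, 5 were admitted by the stigmasterol library alone and 1 by the high sitosterol library alone. Among the 8 at 1 CPM in both libraries 4 were lower and 1 was higher (median -0.73). Cyp2a4, a steroid hydroxylase, was high in both livers, at 198 scaled CPM with high sitosterol and 160.2 with stigmasterol, with 1.17 in the low sitosterol liver and 0.853 in the ergosterol liver (log2 -0.30). Sult1e1, the estrogen sulfotransferase, was at 31.05 and 6.31 (4.92-fold lower). The P450 genes Cyp2c69 (13.6 and 0.264) and Cyp2c40 (111 and 2.90) were 49.98-fold and 38.2-fold lower. The prolactin receptor Prlr was 5.44-fold lower. In the growth hormone and IGF list of 16, 2 were higher and 4 lower (median 0.44). The receptor Ghr (2.19-fold), Igf1 (626 and 305, 2.05-fold) and its carrier Igfals (2.36-fold) were lower with TMM factors and not under every scaling. Bcl6, a repressor of female genes in male liver, was 2.36-fold higher, and Cish, a direct target of growth hormone signalling, was at 12.5 and 23.1 (log2 0.88).

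**Figure D4:**
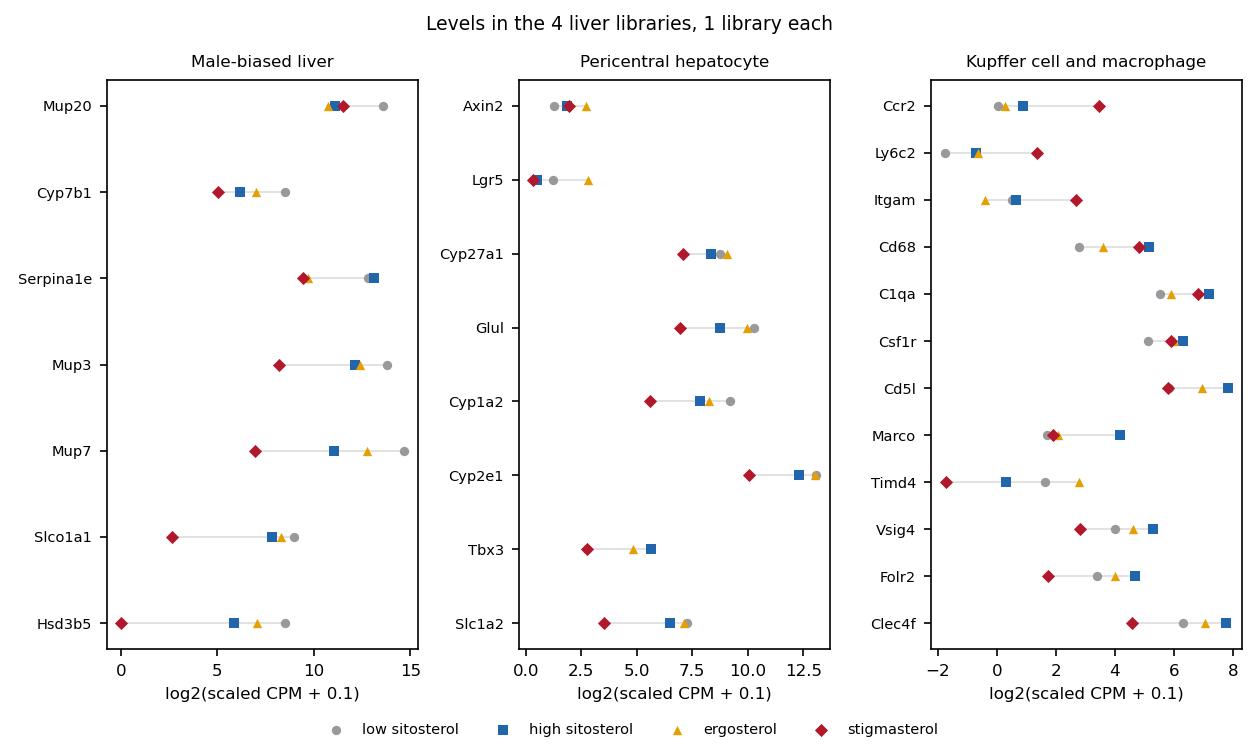
Levels of male-biased, pericentral and macrophage genes named in the text in the 4 livers as log2(scaled CPM + 0.1), 1 symbol for each library and no error bars because each group is 1 library; genes are sorted by the ratio of stigmasterol over high sitosterol. In the first panel Hsd3b5 and Mup7 run from the stigmasterol liver through the high sitosterol and ergosterol livers to the low sitosterol liver, and in the third the monocyte genes at the top and the Kupffer cell genes at the bottom lie on opposite sides.

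Some enzymes of fatty acid oxidation and of foreign compound metabolism stood higher. Of 25 targets of PPARA, a nuclear receptor for fatty acids, 9 were higher, all under every scaling, and 2 lower (median 0.60). Among the 24 at 1 CPM in both libraries 8 were higher and 2 lower. Cyp4a14, a fatty acid hydroxylase, stood at 60.5 scaled CPM with high sitosterol and 377 with stigmasterol, with 14.1 in the low sitosterol liver and 1011 in the ergosterol liver (6.23-fold). The thioesterases Acot1 (9.28 and 73.98), Acot2 and Acot3 were 7.96-fold, 7.59-fold and 9.42-fold higher, and Ehhadh, of peroxisomal oxidation, 4.03-fold (164 and 660.3). Plin2, which coats lipid droplets, was 2.78-fold higher, and the droplet proteins Cidec (4.86 and 64.5, 13.3-fold) and Cidea (1 count against 154, log2 interval 4.21 to 12.02) were higher. Both belong to the adipocyte list, which had 3 of 5 analysed members higher and 1 lower (median 1.44), summed to 29.9 and 111 scaled CPM and had 3 of its 10 members at 0 in each liver. Cidea was admitted by the stigmasterol library alone and Cfd, the lower member, by the high sitosterol library alone. Among the 3 at 1 CPM in both libraries 2 were higher and 0 lower. The part of fat cells in these differences was not tested. Enzymes of mitochondrial oxidation such as Cpt1a (0.09) and Acadvl (0.03) were within 2-fold. Fabp1, the liver fatty acid carrier, was 3.03-fold lower at 4077 and 1345, but not under every scaling.

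Targets of the drug receptors CAR and PXR had 3 of 18 analysed members lower and 6 higher (median 0.19). Cyp3a11, the main drug-oxidising P450 of mouse liver, stood at 559 scaled CPM with high sitosterol and 2681 with stigmasterol, with 606 in the low sitosterol liver and 1152 in the ergosterol liver (4.80-fold). Cyp2c55 (2.59 and 12.1, 4.64-fold), Cyp2b10 (2.22 and 8.24, 3.70-fold) and the drug exporter Abcb1a (6.30-fold) were also higher. Gsta1, a glutathione transferase, was at 8.40 and 151 (18.01-fold), with 0.318 in the low sitosterol liver and 4.20 in the ergosterol liver, and its near copy Gsta2 was 7.36-fold higher. Cyp2c29 (2.32-fold), Sult1d1 (2.08-fold) and Alas1, the first enzyme of heme synthesis (3.66-fold), were lower, 1 of them under every scaling. NRF2 targets, which answer to electrophiles and oxidants, had 2 of 16 lower and 6 higher, 4 of the higher ones under every scaling (median 0.63). Among the 15 at 1 CPM in both libraries 5 were higher and 2 lower (median 0.55). Gstm3 was at 111 and 459 (4.14-fold), Gsta4 4.59-fold, Nqo1 at 4.43 and 11.1 (2.50-fold) and the cystine carrier Slc7a11 at 0.669 and 5.62 (8.30-fold). Heme oxygenase Hmox1 (82.5 and 37.7) and Osgin1 were 2.19-fold and 2.60-fold lower, neither under every scaling.

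Glucose genes split. G6pc, the last step of glucose release, stood at 42.4 scaled CPM with high sitosterol and 240.2 with stigmasterol, with 501 in the low sitosterol liver and 462 in the ergosterol liver (5.66-fold higher), so the high sitosterol liver was the low library. Igfbp1, a secreted protein that insulin holds down, was at 132 and 699 (5.28-fold higher). Gys2, the glycogen synthase of liver, and the pyruvate kinase Pklr were 3.99-fold and 3.15-fold lower. In all, 6 of the 16 genes of this list were lower and 2 higher (median -0.49, or 0.01 with total counts).

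Heat shock genes held the 2 lowest ratios among ordinary gene symbols with at least 10 CPM in the higher library. Cytosolic chaperones keep proteins folded and are switched on together by the factor HSF1 under heat and other stress. Of 17 listed, 10 were lower, 9 of them under every scaling, and 1 was higher. The median was -1.76, or -1.26 with total counts. The sequence before the start of 3 of them is shown because these genes stood together, and because the first pair is so alike that their reads can be misassigned. The windows run from 250 bases before to 50 after the gene start (RefSeq, GRCm38.p6): Hspa1a lies at chr17:34972107-34972406, minus strand, Hspa1b at chr17:34959189-34959488, minus strand and Hspb1 at chr5:135887669-135887968, plus strand. Capitals mark the heat shock element letters GAANNTTC or TTCNNGAA, searched on both strands.
Hspa1a: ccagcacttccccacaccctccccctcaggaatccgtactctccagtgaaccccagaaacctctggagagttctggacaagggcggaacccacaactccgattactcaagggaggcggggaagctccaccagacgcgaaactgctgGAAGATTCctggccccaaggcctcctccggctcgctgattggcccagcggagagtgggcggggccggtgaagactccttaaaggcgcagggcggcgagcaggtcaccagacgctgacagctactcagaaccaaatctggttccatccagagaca
Hspa1b: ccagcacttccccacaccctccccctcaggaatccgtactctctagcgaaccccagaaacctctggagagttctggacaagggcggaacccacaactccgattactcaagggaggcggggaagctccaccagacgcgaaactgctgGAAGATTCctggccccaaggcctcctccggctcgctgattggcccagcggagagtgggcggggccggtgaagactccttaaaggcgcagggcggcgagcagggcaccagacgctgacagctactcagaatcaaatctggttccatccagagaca
Hspb1: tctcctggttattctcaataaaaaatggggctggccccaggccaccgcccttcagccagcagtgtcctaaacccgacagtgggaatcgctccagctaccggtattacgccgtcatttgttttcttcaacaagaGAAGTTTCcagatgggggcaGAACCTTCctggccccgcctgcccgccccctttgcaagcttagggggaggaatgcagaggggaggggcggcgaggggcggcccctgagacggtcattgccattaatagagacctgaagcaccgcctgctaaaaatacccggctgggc
The Hspa1a and Hspa1b windows were identical at 296 of 300 positions and differed at 4. Of 13 chaperone genes with a window in the table, 10 held a match to either element in at least 1 window, against 15.1% of all 32851 windows (7.86% held GAANNTTC and 8.52% TTCNNGAA). A gene with more than 1 window counts once here, so a share of genes stands beside a share of windows. Dnajb1 had no match in its 2 windows. A match describes the letters and is not evidence of binding.

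Hspa1a, the inducible chaperone of the HSP70 family, stood at 449 scaled CPM with high sitosterol and 2.35 with stigmasterol, with 9.04 in the low sitosterol liver and 4.11 in the ergosterol liver. It was 191-fold lower in the stigmasterol liver (log2 -7.58, -7.81 to -7.36; -6.83 on the log2(TPM + 0.1) scale). Hspa1b was at 793 and 7.26, with 74.6 in the low sitosterol liver and 46.4 in the ergosterol liver (109-fold). The high sitosterol liver stood above the other 3 for both. Their co-chaperone Dnajb1 (251 and 15.4, 16.3-fold), the exchange factor Hsph1 (298 and 25.3, 11.8-fold) and the small chaperone Hspb1 (339 and 34.1, 9.93-fold) had the same order. Hsp90aa1, the inducible HSP90, was 3.43-fold lower (585 and 171), while its constitutive relative Hsp90ab1 (-0.75) and the mitochondrial chaperone Hspd1 (-0.46) were within 2-fold. Cryab, a small chaperone of muscle and lens, was the higher member at 5.14 and 12.3 (2.40-fold). The stigmasterol liver was also the lowest of the 4 for Hspa1a, Hspa1b, Dnajb1, Hsph1 and Hspb1.

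Clock genes, which form opposed arms, showed both directions. The activators Arntl (BMAL1) and Npas2 drive genes through the E-box letters CACGTG, and the products of Per, Cry and Nr1d1 in turn repress them, so that the arms peak at different times of day. The sources used here do not give the hour at which the mice were killed. Of 18 clock genes 8 were lower and 2 higher (median -0.91), 6 and 2 of them under every scaling. Npas2 was admitted by the stigmasterol library alone and Ciart by the high sitosterol library alone. Of the 16 at 1 CPM in both libraries 7 were lower and only 1, Arntl, was higher. Ciart, a repressor of BMAL1, carries 3 E-boxes in its window (chr3:95882179-95882478, minus strand), shown because it had the largest ratio of the lower arm and with the E-boxes in capitals.
Ciart: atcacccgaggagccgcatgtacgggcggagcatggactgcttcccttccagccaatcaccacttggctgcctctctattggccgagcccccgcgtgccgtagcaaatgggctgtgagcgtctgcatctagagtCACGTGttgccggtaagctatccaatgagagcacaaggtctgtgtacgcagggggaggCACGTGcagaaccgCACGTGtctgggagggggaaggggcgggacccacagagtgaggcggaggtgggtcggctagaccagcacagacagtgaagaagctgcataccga
Of 16 clock genes with a window 5 held CACGTG in at least 1 window, beside 7.15% of all windows, which is a share of windows and not of genes. The 5 were Ciart, Tef and Bhlhe41, which were lower, and Per1 and Cry1, which were not past the rule. The lower genes Per3, Nr1d1, Dbp and Hlf had none in their windows, so the letters did not mark out the lower genes.

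Ciart stood at 20.1 scaled CPM with high sitosterol and 0.587 with stigmasterol, with 7.70 in the low sitosterol liver and 0.404 in the ergosterol liver (33.7-fold lower). Dbp, a transcription factor with a strong daily rhythm, was at 168 and 8.13, with 126 in the low sitosterol liver and 6.17 in the ergosterol liver (20.7-fold lower). Per2 (26.3 and 2.74, 9.57-fold) and Nr1d1 (140.0 and 30.1, 4.65-fold) were lower too. Arntl was at 1.77 and 16.1, with 3.66 in the low sitosterol liver and 12.8 in the ergosterol liver (9.06-fold higher), and Npas2 at 0.237 and 6.20, with 0.366 in the low sitosterol liver and 3.86 in the ergosterol liver (25.2-fold higher). For Ciart, Dbp, Per2, Arntl and Npas2 the ergosterol liver was nearer to the stigmasterol liver and the low sitosterol liver to the high sitosterol liver on the log2 scale. Thrsp, Lpin1 and Alas1, given above, are known to cycle over the day in liver, and the part of the hour in their differences was not tested.

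**Figure D5:**
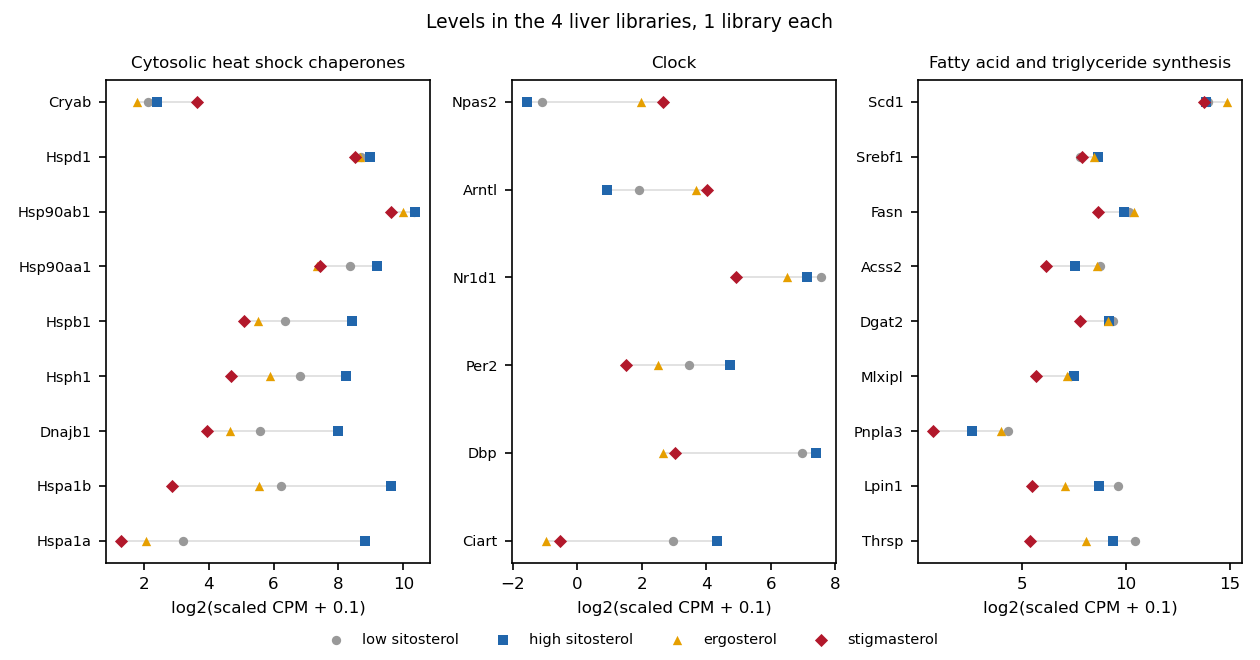
Levels of heat shock, clock and lipid synthesis genes named in the text in the 4 livers as log2(scaled CPM + 0.1), 1 symbol for each library and no error bars because each group is 1 library; genes are sorted by the ratio of stigmasterol over high sitosterol. In the first panel the high sitosterol liver lies far to the right for Hspa1a and Hspa1b, and in the second the pairs stigmasterol with ergosterol and high with low sitosterol lie on opposite sides for Npas2, Arntl, Dbp and Ciart.

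Among other stress genes the metallothioneins, which bind zinc, were high in both livers and higher with high sitosterol: Mt1 at 914 scaled CPM with high sitosterol and 398 with stigmasterol, with 122 in the low sitosterol liver and 34.3 in the ergosterol liver (2.29-fold lower), and Mt2 2.06-fold lower, though neither under every scaling. The zinc carrier Slc39a5, at 10 against 79 counts and admitted by the stigmasterol library alone, was the higher member of these 8 genes (5.20-fold), not under every scaling. It was at 1.16 scaled CPM with stigmasterol, below the 2.03 in the low sitosterol liver and 3.79 in the ergosterol liver. Of 18 genes of the unfolded protein and integrated stress responses 2 were higher, the amino acid response genes Asns (3.61 and 12.9, 3.57-fold) and Trib3 (2.31-fold), and 1 was lower, the endoplasmic reticulum protein Sdf2l1 (3.59-fold). Their median was -0.39, or 0.10 with total counts. Targets of p53 had 5 of 14 higher and 0 lower (median 0.32), led by Phlda3 (4.34-fold) and the cell cycle inhibitor Cdkn1a (20.6 and 86.05, 4.17-fold), while Mdm2 (0.20) and Bax (0.21) were within 2-fold. Of the 13 p53 targets at 1 CPM in both libraries 4 were higher and 0 lower (median 0.30). Among 17 immediate early genes 6 were higher and 0 lower (median 0.36), with the growth arrest gene Gadd45g at 10.8 and 107 (9.96-fold) and Myc 3.74-fold higher, and the ergosterol liver at 192 and 34.97. Fos (-0.58) and Jun (-0.51) were within 2-fold. The 13 protein genes of the mitochondrial genome included 5 lower and 0 higher (median -0.92), none under every scaling, and took 6.35% and 4.66% of all counts. Of 13 iron genes Bmp6, which tells hepatocytes of iron load (0.540 and 2.86, 5.23-fold), and the ferroxidase Heph (6.20-fold) were higher and 1 was lower. Both higher genes had been admitted by the stigmasterol library alone. Of the 11 at 1 CPM in both libraries 0 were higher and 1 was lower (median -0.15). The iron hormone hepcidin (Hamp) was at 574 and 548 (log2 -0.07). Of 7 ferroptosis genes Slc7a11, given above, and Acsl4, which loads polyunsaturated fatty acids into lipids (2.07-fold), were higher, not under every scaling. Slc7a11 had been admitted by the stigmasterol library alone. Erythroid genes had 0 of 6 past the rule (median -0.05, or 0.45 with total counts), the globin Hbb-bs being at 158 and 206.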

How the data were processed

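Total RNA of liver was sequenced per the labels with a TruSeq v2 kit, which does not mark strand. The authors deposited estimated counts per gene symbol and, for these libraries, a TPM table. Per the submitters' processing notes the tools include Trimmomatic 0.33, HISAT2 2.0.5 and kallisto 0.43.1 and the build is mm10, with no role or order stated, and no source used here gives the annotation. Estimated counts were rounded to whole numbers, which altered 40.3% of genes in the high sitosterol and 43.0% in the stigmasterol library. A row that names no gene held 0% of the counts and was left out. Coordinates come from GENCODE M21, in which 12944 of the 13213 genes matched 1 gene of that name.

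Counts were scaled with TMM factors of the 4 livers (edgeR 4.0.16, R 4.3.3), and ratios took a prior count of 0.5. Exact conditional binomial (Clopper-Pearson) 95% intervals (scipy 1.17.1) cover counting error only, and PCR copies of a molecule count as separate reads. With 1 library per group there is no test and no p-value. The calculation was tested on simulated data. Alternatives were total counts, DESeq2 1.42.0 size factors, TMM of the 2 libraries, the TPM table with pseudocounts of 0.1 and 1, other low-count limits, a prior count of 5 and a 4-fold limit. "Every scaling" above means all but the last 3 kinds.

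The members and the 48 lists were chosen with earlier results of these data known. Genes named by rule were Abcg8, Abcg5 and 14 set genes, the 10 highest and 10 lowest ratios at 10 CPM and at 200 CPM in the higher library, and the 4 most different members of each list. Some of these genes are not reported here. All other genes named were chosen after their values were seen. Near-identical copies (Hspa1a with Hspa1b, Mup, Serpina1, Cyp2c, Cyp2a, Cyp4a, Gsta, pseudogenes) and overlapping genes have uncertain values.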

Additional observations from a re-analysis of the deposited data

How the results depend on the processing

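The number of genes higher in the stigmasterol liver, 2180, was 3851 with total counts, 4350 on the log2(TPM + 0.1) scale, 774 with a 10 CPM limit and 948 with a 4-fold limit, and lay between 2052 and 3082 under the 5 other alternatives. The number lower, 714, was 330 with total counts, 277 and 189 on the log2(TPM + 0.1) and log2(TPM + 1) scales, 1293 with no low-count limit, 415 with a 10 CPM limit and 184 with a 4-fold limit. The median of all genes, 0.10, was 0.60 with total counts, 0.0439 with DESeq2 size factors, 0.0566 with TMM of the 2 libraries, 0.70 and 0.55 on the TPM scales and 0.0206 with a 10 CPM limit. The cause of these shifts was not tested. Of the 202 genes named by rule 163 passed the size rule, 122 of them under every scaling, and none that passed it changed direction. Those no longer past it numbered 28 with total counts, 26 and 35 on the TPM scales, 2 with DESeq2 factors and 1 with a prior count of 5. No paired analysis was possible because each diet had 1 library, and no replicate could be left out. Depth limits genes at a few counts: 41 genes had 0 counts in the high sitosterol liver and 6 in the stigmasterol liver.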

Other observations

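Gene families grouped by the stem of their symbol, with at least 8 analysed members, gave further groups. Some of their members, among them Mup7 and Mmp2, are also in the lists above. The values are descriptions of these 2 livers, with the families chosen for mention after their values were seen. The family counts and medians include genes admitted by 1 library alone, such as Sema3g and Adamts12, and were not split by admission. Over all genes, 1076 of the 1357 admitted by the stigmasterol library alone were higher, so the family shares rest in part on that rule. Secreted proteases of the Adamts family, which cut matrix proteins, had 8 of 12 members higher and 0 lower (median log2 ratio 1.996), with Adamts2, which trims procollagen, at 6.50 scaled CPM with high sitosterol and 34.2 with stigmasterol (5.26-fold). Matrix metalloproteinases had 9 of 14 higher and 1 lower (1.44), Mmp2, which cuts basement membrane collagen, being at 4.97 and 52.7 (10.6-fold). Semaphorins, guidance proteins, had 10 of 17 higher and 0 lower (1.48), with Sema3g at 2 counts against 183 (log2 interval 4.08 to 9.01). The Chst sulfotransferases of sugar chains had 7 of 8 higher (1.65) and the kinesin motors of the Kif family 17 of 32 higher and 2 lower (1.25). In the opposite direction, the major urinary proteins had 0 of 24 higher and 21 lower (-2.70), 20 of them under every scaling, the Cyp2c genes 1 of 13 higher and 10 lower (-1.61), the cytosolic sulfotransferases (Sult) 1 of 8 higher and 6 lower (-1.43), and the Cyp2d genes 0 of 9 higher and 7 lower (-1.34). Of the Cyp2c, Sult and Cyp2d lower calls 5, 3 and 2 held under every scaling. Of the higher calls above, 4 of the Adamts, 7 of the metalloproteinase, 5 of the semaphorin, 5 of the Chst and 9 of the Kif genes did. Sult2a8, a liver sulfotransferase, stood at 336 scaled CPM with high sitosterol and 9.93 with stigmasterol (33.9-fold lower).

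Of 42 genes with olfactory receptor (Olfr) symbols 0 were higher and 15 lower (-0.88), 2 of them under every scaling. Among 124 genes at 1000 CPM or more in the higher library 5 were higher and 37 lower. The processed pseudogene Rpl17-ps8 had 0 counts in the high sitosterol and ergosterol livers and 602 in the stigmasterol liver (at least 136-fold higher), with 9.21 scaled CPM in the low sitosterol liver, while its parent Rpl17 was at 368 and 281. Scp2-ps2 was 55.3-fold lower (237 and 4.27), with 68.6 in the low sitosterol liver and 4.38 in the ergosterol liver, and its parent Scp2 was at 2677 and 2535.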
